A study of Homo sapiens with 11 samples.

Results

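H3K36me3 and H3K9me3 were compared in MDA-MB-231 cells with normal mdig protein (WT), to describe where the chromatin of transcribed genes and the chromatin of silenced regions meet and how sharply they are kept apart. The members were all enriched intervals of the H3K36me3 WT list and the H3K9me3 WT list on chromosomes 1 to 22 and X. They numbered 17507 for H3K36me3 and 45805 for H3K9me3, together 63312 of the 229591 intervals in the 10 ChIP lists of the series. MDA-MB-231 is a human triple-negative breast cancer line. WT cells and cells lacking mdig (KO) were both generated by CRISPR-Cas9 and grown with blasticidin, per the labels' protocols, so the WT cells are not untouched parental cells. Mdig, also named MINA53 or RIOX2, is an oxygenase with a JmjC domain, and the antibody against it is labelled MINA. Whether each genotype is 1 clone or a pool is not given in the labels.

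Trimethylation of lysine 36 of histone H3 is laid down by SETD2, a methyltransferase that travels with elongating RNA polymerase II, so the mark covers the bodies of transcribed genes and is weak at their promoters. Trimethylation of lysine 9 is laid down by SUV39H1, SUV39H2 and SETDB1 and is bound by HP1 proteins, which pack heterochromatin over satellites, transposons and silent gene clusters. Both marks can occur together over clusters of KRAB zinc finger genes, many of which lie on human chromosome 19. At such clusters TRIM28 and SETDB1 deposit H3K9me3 over the 3′ part of genes that are still transcribed. H4K20me3 is another heterochromatin mark that often follows H3K9me3, while H3K4me3 marks active promoters.

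There was 1 library per antibody and genotype. The lists give positions only, with no height, read count or score, and nothing in them gives the sequencing depth. No test was therefore run and no p-value is given. Confidence intervals of shares are 95% Wilson intervals and cover counting error only. The KO lists of the same antibodies, with 17800 H3K36me3 and 53375 H3K9me3 intervals, were the only other measurement of this pair of marks. They differ from the WT lists in genotype as well as in library, and these cannot be told apart.

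The lists differed in shape as well as in place. H3K36me3 lay in fewer and wider intervals, with a median width of 11.4 kb and 5th to 95th percentiles of 3.0 and 59.6 kb. H3K9me3 lay in many short intervals, with a median of 4.0 kb and 5th to 95th percentiles of 1.4 and 14.2 kb. In all, H3K36me3 covered 327.9 Mb and H3K9me3 covered 254.7 Mb. These were 10.8% and 8.40% of the 3034.2 Mb from the first base of each chromosome to its last interval. H3K36me3 had 1298 intervals over 50 kb and H3K9me3 had 163. The 3 widest H3K36me3 intervals were 141665601-141907200 of chromosome 8 (241.6 kb), 36583401-36824400 of chromosome 2 (241.0 kb) and 120105801-120314800 of chromosome 12 (209.0 kb), in build hg19, as throughout. H3K9me3 covered 0% of the first, 3.49% of the second and 2.30% of the third. The widest H3K9me3 interval was 58431401-58658000 of chromosome 19 (226.6 kb), and 5 H3K36me3 intervals covered 18.8% of it. The next ones were neighbours on chromosome 11, 134200201-134420600 (220.4 kb) and 134421401-134591400 (170.0 kb), and held no H3K36me3. Of these widest domains the one on chromosome 19 was thus the only one with more than a few percent of the other mark.

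The marks shared little of the genome. They lay together on 7.41 Mb, which was 2.26% of the H3K36me3 length and 2.91% of the H3K9me3 length. If one list is moved around each chromosome as a circle, which keeps its widths and spacing, the mean common length over all such shifts is 31.9 Mb, and 95% of 1000 genome-wide shifts gave 29.2 to 34.6 Mb. The observed length was 0.232 of that expectation. Of the H3K36me3 intervals, 1334 of 17507 met an H3K9me3 interval by at least 1 bp, or 7.62% (7.24% to 8.02%), beside 24.1% expected (23.04% to 25.3% in shifts). Of the H3K9me3 intervals, 1331 of 45805 met H3K36me3, or 2.91% (2.76% to 3.06%), beside 13.7% expected (12.8% to 14.7%).

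Other pairs of marks in the same WT cells give a scale for this separation. H3K9me3 and the other heterochromatin mark H4K20me3 shared 4.34 times the expected length. H3K36me3 and H3K4me3, both marks of transcribed genes, shared 2.52 times the expected length. The ratio was 0.196 for H3K9me3 with H3K4me3 and 0.613 for H3K36me3 with H4K20me3. H3K36me3 and H3K9me3 at 0.232 therefore stood near the pair of silent chromatin and active promoters, and below the pair of H3K36me3 and H4K20me3. These pairs share lists, so they are not independent of each other. In KO cells H3K36me3 and H3K9me3 were together on 7.97 Mb beside 35.2 Mb expected, a ratio of 0.227.

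The degree of separation differed between chromosomes, and by the ratio of observed to expected length chromosome 19 was the least separated. The common length was below its expectation on 23 of 23 chromosomes in WT and on 23 of 23 in KO. It lay below the 2.5th percentile of the shifts of that chromosome on 21, and inside the shifts on chromosomes 18 and X. The 3 highest ratios were 0.556 on chromosome 19, 0.464 on 18 and 0.442 on 21. The 3 lowest were 0.0756 on chromosome 20, 0.0787 on 22 and 0.0908 on 14. Both ends of this order need the lengths beside them. Chromosome 19 held 2.46 Mb of common length, while chromosome 18 held 0.0784 Mb beside 0.169 Mb expected and chromosome 21 held 0.121 Mb beside 0.273 Mb. Chromosomes 20, 22 and 14 held 0.0928, 0.0470 and 0.122 Mb.

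Chromosome X carried little of either mark, with 4.12% of its span under H3K36me3 and 1.06% under H3K9me3. Its common length was 0.0286 Mb beside 0.0676 Mb expected, a ratio of 0.423 that rests on 8 H3K9me3 intervals. In KO cells the expected length on X was 0.877 Mb and the ratio 0.0942. Ratios on chromosomes 18 and 21 were also lower in KO, at 0.111 and 0.194. On chromosomes 20, 22 and 14 they were 0.138, 0.100 and 0.0504. Over the 22 chromosomes other than 19 the median ratio was 0.202 in WT (0.0756 to 0.464) and 0.158 in KO (0.0504 to 0.465).

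**Figure D1:**
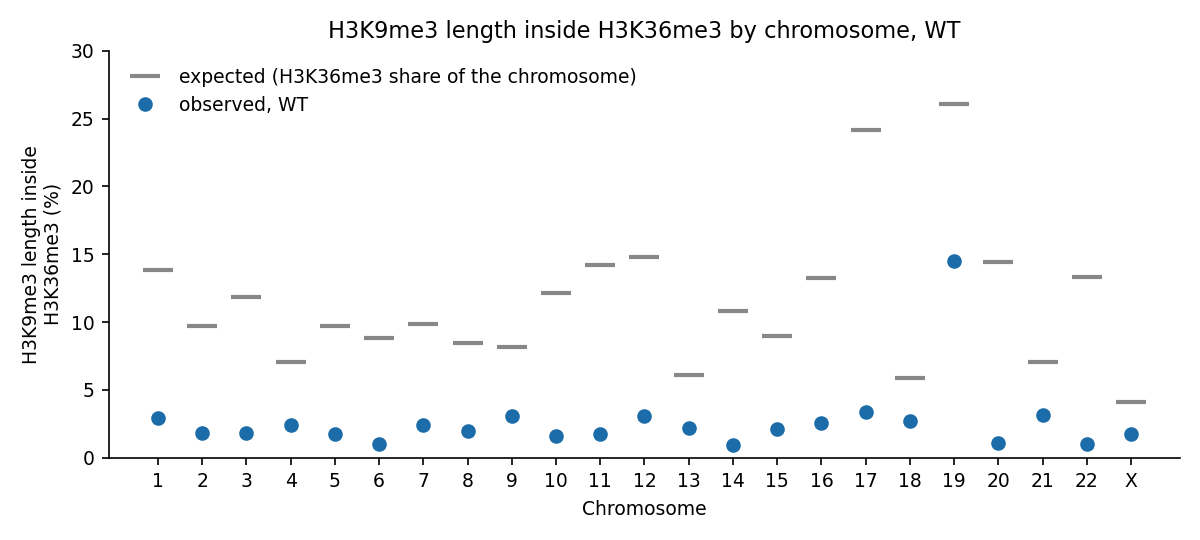
Share of H3K9me3 length that lay inside H3K36me3 on each chromosome in WT cells, in percent (points), with the share expected if the marks were placed independently, which equals the H3K36me3 share of the chromosome (grey bars; 1 library per mark, no error bars). On the 22 chromosomes other than 19 the points lie between 0.982% and 3.40% although the bars run from 4.12% to 24.1%, and on chromosome 19 the point is at 14.5% and the bar at 26.0%.

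Outside chromosome 19 the share of H3K9me3 length inside H3K36me3 stayed low whatever amount of H3K36me3 a chromosome carried. The share ran from 0.982% on chromosome 14 to 3.40% on chromosome 17, with a median of 2.07%. The H3K36me3 cover of these chromosomes ran from 4.12% on X to 24.1% on 17, with a median of 9.81%. Across the 22 chromosomes Spearman's rank correlation of that share with the H3K36me3 cover was -0.05. The ratio of observed to expected length, which has the cover in its denominator by construction, gave -0.72. Counted as intervals, overlap did rise with the cover. The share of H3K9me3 intervals that met H3K36me3 ran from 1.41% to 5.25%, with a correlation of 0.46. For H3K36me3 intervals that met H3K9me3 the correlation was 0.39. The plot of the share of length by chromosome shows a flat row of points under bars of very unequal height. Gene-rich chromosome 17 and gene-poor chromosome 18 thus had like shares in WT, 3.40% and 2.72%, under unlike covers, 24.1% and 5.87%. The share on chromosome 18 rests on 0.0784 Mb in 20 H3K9me3 intervals. Ratios of observed to expected length on 17 and 18 were 0.141 and 0.464 in WT. In KO they were 0.169 and 0.111, so their order was reversed.

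Chromosome 19 held far more of the doubly marked length than its size or its amount of either mark. It made up 1.95% of the span, 4.70% of the H3K36me3 length and 6.67% of the H3K9me3 length, but 33.2% of the common length. H3K36me3 covered 26.0% of it and H3K9me3 28.8%. With both covers this high, 4.43 of the 31.9 Mb expected over all chromosomes already fell on chromosome 19. The marks lay together on 2.46 Mb beside 4.43 Mb expected (3.67 to 5.596 Mb in shifts), so even there the common length was 0.556 of the expectation. H3K9me3 was met by 34.3% of its H3K36me3 intervals (31.1% to 37.7%), beside 44.2% expected. H3K36me3 was met by 18.2% of its H3K9me3 intervals (16.2% to 20.3%), beside 35.1% expected. On the other chromosomes the common length was 4.94 Mb beside 27.5 Mb expected, a ratio of 0.180, and 6.38% of H3K36me3 and 2.44% of H3K9me3 intervals met the other mark. In KO the ratio was 0.696 on chromosome 19 and 0.162 on the others.

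Along chromosome 19 the degree of separation varied from block to block of 5 Mb. Where each mark's cover of the block sets the expectation, the ratio was 0.981 from 20 to 25 Mb, with H3K9me3 on 65.7% and H3K36me3 on 10.1% of the block. It was 1.01 from 50 to 55 Mb, with 41.8% and 27.9%. In these blocks the marks overlapped as much as their amounts alone would give. From 30 to 35 Mb the ratio was 0.0274 with 44.6% H3K9me3 and 15.1% H3K36me3, and from 45 to 50 Mb it was 0.188 with 7.59% and 34.7%. Blocks of high H3K9me3 cover were therefore found at both ends of the range. An hg19 gene annotation was not used here, so zinc finger genes were not assigned to these blocks.

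The width of an H3K36me3 interval was related to meeting H3K9me3. The plain share that met it was lower in wide intervals on chromosome 19 and higher in them elsewhere. Relative to the expectation it was lower in wide intervals in both. On chromosome 19 narrow H3K36me3 intervals met H3K9me3 most often. Of those of 2 to 5 kb, 28 of 62 met it, or 45.2% (33.4% to 57.5%), beside 34.5% expected, and of those of 5 to 10 kb, 87 of 191 met it, or 45.5% (38.6% to 52.6%), beside 37.9% expected. The share was 35.2% at 10 to 20 kb, 24.3% at 20 to 50 kb and 16.7% over 50 kb, where 63.5% was expected and 8 of 48 met it. On the other chromosomes the share rose with width, from 4.30% at 2 to 5 kb to 13.4% over 50 kb, as the expectation did from 11.8% to 50.3%. The ratio to the expectation still fell there from 0.363 to 0.265, and on chromosome 19 it fell from 1.31 to 0.263. Measured as length, H3K9me3 covered 40.7% of H3K36me3 intervals of 2 to 5 kb on chromosome 19 but 1.86% of those over 50 kb. Wide H3K36me3 domains were nearly free of H3K9me3 on chromosome 19 as they were elsewhere, where H3K9me3 covered 0.942% of them.

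**Figure D2:**
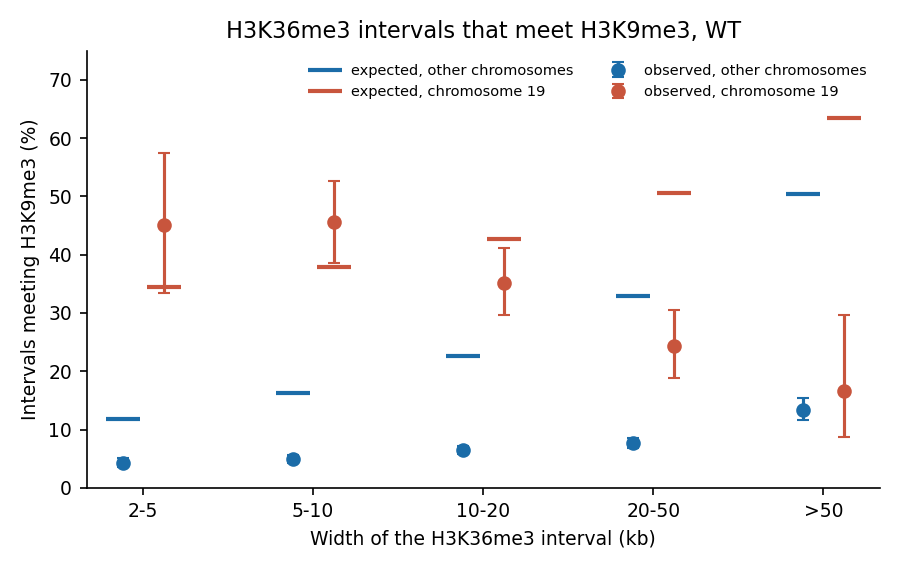
Share of H3K36me3 intervals that met an H3K9me3 interval in WT cells, in percent, by width of the H3K36me3 interval in kb, on chromosome 19 and on the other chromosomes (points with 95% Wilson intervals; bars are the mean over circular shifts). On chromosome 19 the share falls from 45.2% at 2 to 5 kb to 16.7% over 50 kb while the expectation rises from 34.5% to 63.5%.

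For H3K9me3 intervals the share that met the other mark rose with width in both. On chromosome 19 the share that met H3K36me3 rose from 12.1% at 2 to 5 kb to 38.0% at 20 to 50 kb (31.2% to 45.3%), beside 29.7% and 45.8% expected. Elsewhere it rose from 2.47% to 4.51% beside 12.2% and 21.2% expected. All of these shares were below their expectation, unlike those of narrow H3K36me3 intervals on chromosome 19.

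Where the marks did meet, pairs with one interval inside the other were more frequent than pairs that crossed an edge. The lists formed 1448 meeting pairs. In 702 of them, 48.5%, an H3K9me3 interval lay wholly inside an H3K36me3 interval, in 188, 13.0%, H3K36me3 lay inside H3K9me3, and in 558, 38.5%, each interval crossed 1 edge of the other. On the other chromosomes the shares were 54.6%, 7.18% and 38.2% of 1142 pairs. On chromosome 19 they were 25.5%, 34.6% and 39.9% of 306 pairs. Islands of H3K36me3 within H3K9me3 domains were thus more frequent among the pairs on chromosome 19, where 106 of the 188 lay. Of the 1334 H3K36me3 intervals that met H3K9me3, 1231 met 1 interval only, and the median of them had 30.1% of its length under H3K9me3. Of the 1331 H3K9me3 intervals that met H3K36me3, 702 were wholly covered.

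The stretches under both marks were short. Their median was 3.8 kb over all 1448, 6.6 kb on chromosome 19 and 3.4 kb elsewhere. Only 24 exceeded 20 kb, 16 of them on chromosome 19. The longest, 58744601-58785000 of chromosome 19 (40.4 kb), was also the widest H3K9me3 interval that lay inside an H3K36me3 interval. The next was on chromosome 4 from 52601 to 88000, 35.4 kb at the very start of the chromosome, and was also the widest H3K36me3 interval inside an H3K9me3 interval. Chromosome 19 held the third from 58694801 to 58726200 (31.4 kb), the fourth from 52567801 to 52598000 (30.2 kb) and the fifth from 58041601 to 58071200 (29.6 kb). In KO cells H3K36me3 covered 93.2% to 100% and H3K9me3 96.7% to 100% of each of these 5 stretches. All 5 also met H3K4me3 and H4K20me3 intervals of WT cells.

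Further examples of islands lay on chromosomes 10 and 19. H3K9me3 intervals of 23 kb on chromosome 10 from 134562201 to 134585200 and of 21.6 kb on chromosome 19 from 9671601 to 9693200 lay inside H3K36me3 intervals. An H3K36me3 interval of 27.0 kb on chromosome 19 from 52800801 to 52827800 lay inside an H3K9me3 interval, beside that of 29.6 kb from 58041601 named above. Each of these was covered by both marks over 99.3% or more of its length in KO cells as well.

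Around the edges of H3K36me3 intervals H3K9me3 was low on both sides. Without chromosome 19, H3K9me3 covered 2.15% of the first 1 kb inside the edge and 1.82% of the first 1 kb outside it, beside 8.27% and 8.26% expected. Inward the cover fell further, to 0.665% at 20 to 50 kb from the nearest edge. Outward it rose slowly, to 4.96% at 5 to 10 kb, 6.87% at 20 to 50 kb and 7.79% at 50 to 100 kb, where 8.21% was expected. It passed the expectation beyond 200 kb and was 12.3% at 500 to 1000 kb, beside 7.77%. H3K9me3 was thus depleted over a margin of 20 to 50 kb outside H3K36me3 as well as inside it, with no step at the edge itself.

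On chromosome 19 that outer margin was narrow. H3K9me3 covered 21.1% of the first 1 kb outside H3K36me3 edges and 28.7% at 5 to 10 kb, where 28.8% was expected. Inside, it covered 23.2% of the first 1 kb and 22.7% at 2 to 5 kb, then 7.11% at 10 to 20 kb and 2.29% at 20 to 50 kb. From H3K36me3 edges the depletion was thus deepest in the interior of the domains. Only wide intervals reach such depths, so these steps describe wide intervals alone. From the edges of H3K9me3 on chromosome 19, H3K36me3 was low on both sides, with 11.2% of the first 1 kb inside, 10.2% of the first 1 kb outside and 17.5% at 5 to 10 kb outside, beside 26.0% expected.

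Seen from the edges of H3K9me3 on the other chromosomes, the margin was shorter. H3K36me3 covered 1.91% of the first 1 kb outside, beside 10.96% expected, and 4.70% at 5 to 10 kb, beside 10.7%. At 20 to 50 kb it was 12.8%, already above the 10.6% expected. It peaked at 19.4% at 100 to 200 kb, beside 10.5% expected, and was 0.464% beyond 1 Mb. H3K36me3 was thus densest at some distance from H3K9me3. The length beyond 1 Mb was 177.3 Mb and was not separated from stretches without an interval of any ChIP list. Over all chromosomes, 2866 of the 3047 bins of 1 Mb in the span held such an interval. How far empty stretches account for the low cover beyond 1 Mb was not tested.

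**Figure D3:**
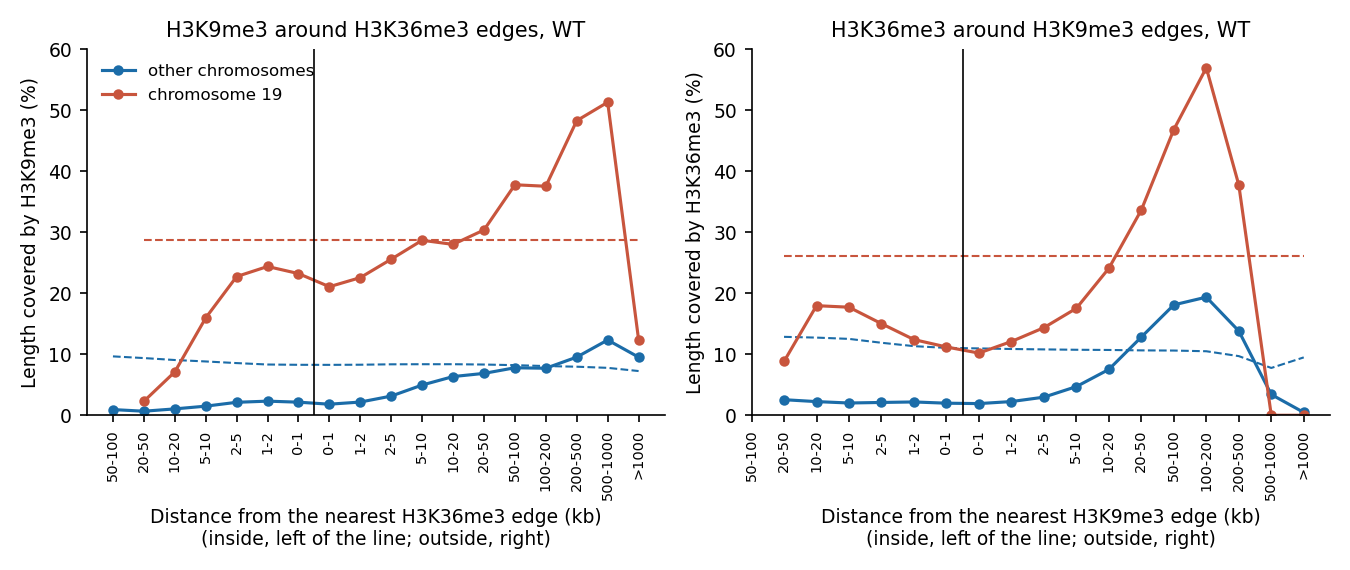
Cover of one mark, in percent of length, by distance in kb from the nearest edge of the other mark in WT cells (left of each vertical line, inside the intervals; right, outside), on chromosome 19 and on the other chromosomes; dashed lines in the same colours give the cover expected from each chromosome's mean. Without chromosome 19, H3K9me3 rises from 1.82% next to H3K36me3 edges to 12.3% at 500 to 1000 kb, and on chromosome 19 it is at its expectation of 28.8% within 5 to 10 kb.

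Over all chromosomes, the gaps between intervals that did not meet were longer than in shifts, mainly when measured from H3K9me3. From 44474 H3K9me3 intervals the median gap to the nearest H3K36me3 interval was 443.2 kb, beside a mean of 261.2 kb in 100 shifts (231.2 to 292.4 kb), 1.70 times as far. Only 777 of them, 1.75%, lay within 5 kb of H3K36me3, beside 3.63% in shifts, and 13 touched it. At the far end 11996, 27.0%, lay over 1 Mb away. From 16173 H3K36me3 intervals the median gap to the nearest H3K9me3 was 62.4 kb, beside 56.4 kb (51.2 to 62.0 kb), a much smaller difference. H3K9me3 within 5 kb was still rarer than in shifts, at 5.52% beside 9.04%. On chromosome 19 the median gap from H3K9me3 was 68.1 kb, inside the 40.9 to 85.8 kb of the shifts. In KO it was 840.8 kb over all chromosomes, beside 300.1 kb in shifts.

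Read along the chromosomes, an interval was mostly followed by another of its own kind, in the observed lists as in shifted ones. Of 61971 neighbouring pairs that did not overlap, 13.7% joined an H3K36me3 to an H3K9me3 interval, beside 14.6% in shifts (13.98% to 15.2%). The median gap of these unlike neighbours was 32.6 kb, beside 24.0 kb in shifts. Runs of like intervals were tighter, with a median gap of 4.2 kb within H3K36me3 and 10.0 kb within H3K9me3. Shifts keep the spacing of each list, and gave nearly the same gaps, 4.46 and 10.2 kb. On chromosome 19 unlike neighbours made up 20.8%, inside the 16.2% to 21.3% of the shifts, and lay 12.8 kb apart. Marks therefore alternated along chromosome 19 about as often as shifted lists did.

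Moving H3K9me3 by fixed distances showed over what length the separation held. On chromosomes other than 19 the common length was 0.180 of the expectation in place, 0.175 after a move of 2 kb, 0.225 after 10 kb, 0.459 after 50 kb and 0.594 after 100 kb (means of both directions). It was 0.790 at 500 kb and 0.937 at 1 Mb, and 1.16 at 5 Mb. On chromosome 19 it was 0.556 in place, reached its lowest value of 0.524 at 10 kb, and was 0.947 at 5 Mb. Outside chromosome 19 moves of up to 5 kb thus left the overlap nearly as it was (0.183 at 5 kb), and it came near the expectation after moves of about 1 Mb.

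The same question can be put with bins, in which each mark keeps its amount but is placed independently inside the bin. Over all chromosomes this expectation was 0.936 of the chromosome-wide one with bins of 5 Mb, 0.711 with 1 Mb, 0.397 with 100 kb and 0.249 with 20 kb, beside 0.232 observed. It approaches the observed value by construction as bins become small. In KO the values were 0.800, 0.463, 0.285 and 0.226, beside 0.227. With bins of 1 Mb, the expected length of 16.3 Mb in the KO libraries was below the 22.7 Mb of the WT libraries, although the observed common lengths were 7.97 and 7.41 Mb.

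**Figure D4:**
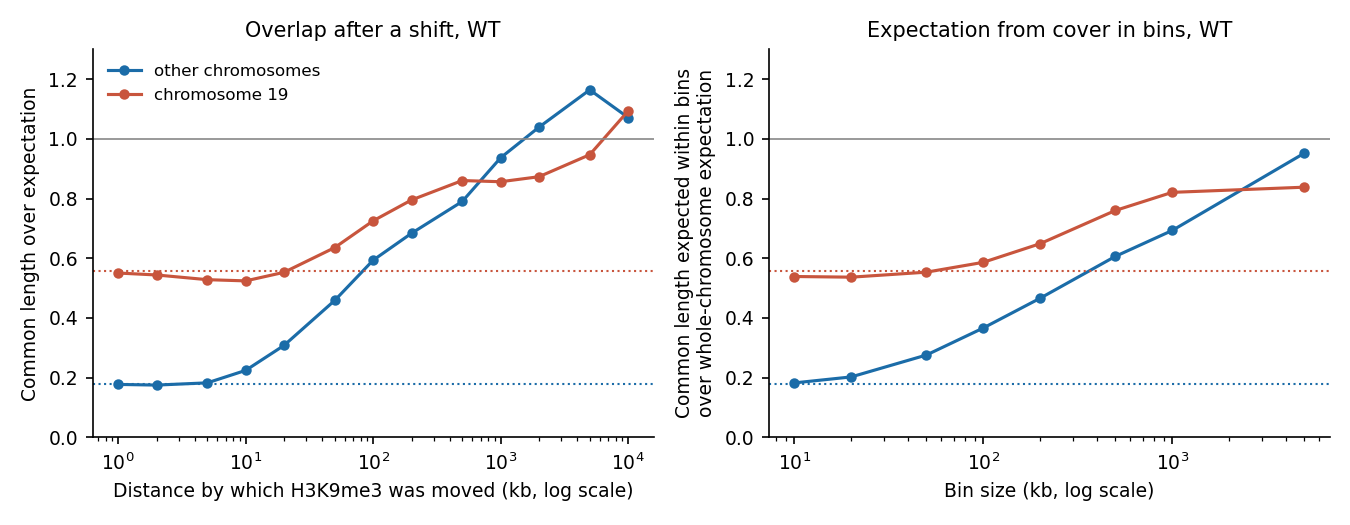
Left, common length of the marks over its expectation after H3K9me3 was moved by 1 kb to 10 Mb (mean of both directions, log axis in kb); right, common length expected within bins of 10 kb to 5 Mb over the chromosome-wide expectation; WT cells, chromosome 19 and the other chromosomes, dotted lines at the observed ratios of 0.556 and 0.180. Without chromosome 19 the left curve stays near 0.180 up to 5 kb and is 0.937 at 1 Mb.

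At the scale of 1 Mb the marks were not exclusive. Of 2866 bins of 1 Mb with an interval of any ChIP list, 2051 held both marks, 736 held H3K9me3 without H3K36me3, 37 held H3K36me3 without H3K9me3 and 42 held neither. Across the 2866 bins Spearman's rank correlation of their covers was -0.06 and Pearson's r -0.13. Neighbouring bins share domains, so the bins are not independent. Its sign depended on how the bins were made, with 0.04 for bins of 2 Mb, 0.22 for 5 Mb and 0.03 over bins with both marks.

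Within single chromosomes the relation was more often negative. Spearman's rank correlation was below 0 on 18 of the 22 chromosomes other than 19, with a median of -0.18, and ran from -0.57 on chromosome 17 (80 bins) to 0.23 on chromosome 9 (118 bins). It was -0.45 over the 57 bins of chromosome 19 and 0.21 over the 149 of X. Classes of bins differed most at the extremes. Outside chromosome 19, the 777 bins that held no H3K36me3 had a median H3K9me3 cover of 5.42% and a mean of 13.1%. In the remaining bins, divided into 4 equal classes of rising H3K36me3 cover, medians were 3.52%, 3.89%, 3.97% and 4.0%, and means 7.63%, 7.84%, 6.30% and 5.74%. Among bins that held H3K36me3 the median hardly differed between classes, while the mean was lower in the upper classes than in the lower ones. With the bins that held H3K9me3 divided in the same way by H3K9me3 cover, median H3K36me3 cover was 6.52%, 9.33% and 9.95% in the lower classes and 2.24% in the highest. In the 79 bins that held no H3K9me3 it was lower still, with a median of 0% and a mean of 6.62%.

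**Figure D5:**
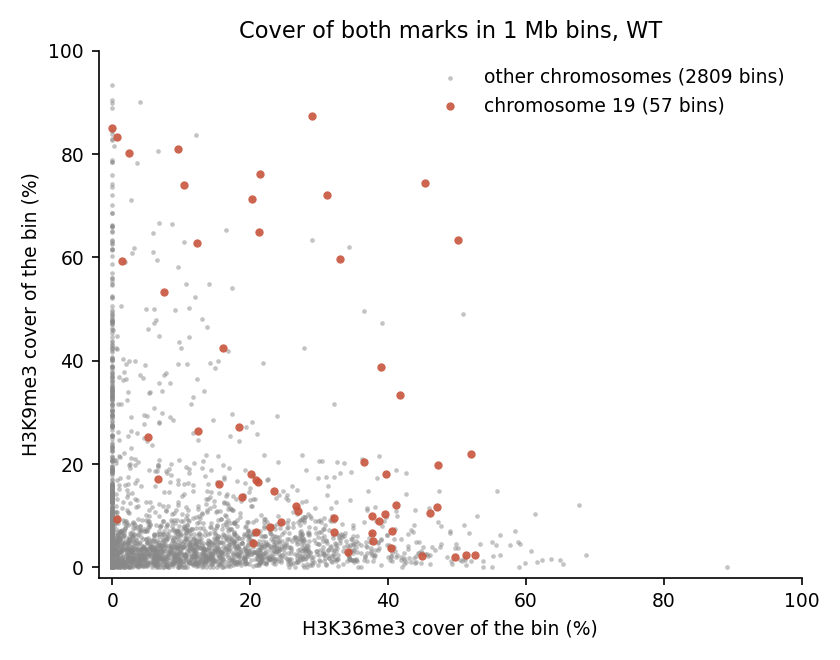
H3K9me3 cover against H3K36me3 cover of bins of 1 Mb in WT cells, in percent of the bin (each point is 1 bin with an interval of any ChIP list; 57 on chromosome 19, 2809 elsewhere). Few bins lie far from both axes, and 32 bins, 12 of them on chromosome 19, have at least 20% of both marks.

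Bins dense in both marks were few, and many of them lay on chromosome 19, which also had many bins dense in either mark. Only 32 bins had at least 20% of each mark, 12 of them on chromosome 19, although 654 bins reached 20% of H3K36me3 and 316 reached 20% of H3K9me3. Of the 57 bins of chromosome 19, 41 reached 20% of H3K36me3 and 24 reached 20% of H3K9me3. At least 30% of each was found in 11 bins, 6 of them on chromosome 19. The bin in which the scarcer mark was highest lay on chromosome 19 from 58000001 to 59000000, with 50.1% H3K36me3 and 63.3% H3K9me3 in 29 and 21 intervals. Chromosome 12 from 133000001 to its last interval had 50.8% and 49.1%. Chromosome 19 from 53000001 to 54000000 had 45.3% and 74.4%. Chromosome 8 from 146000001 to its last interval had 39.1% and 47.3%, and chromosome 19 from 38000001 to 39000000 had 39.0% and 38.8%. The bins of chromosomes 12 and 8 were the last of their chromosome and held 841.6 and 301.2 kb. In KO the covers of H3K36me3 in these 5 bins were 41.6% to 52.6% and those of H3K9me3 30.3% to 68.3%.

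Length under both marks carried the heterochromatin mark H4K20me3 more often than length under H3K9me3 alone. H4K20me3 covered 39.1% of the doubly marked length, 12.9% of the length with H3K9me3 alone and 0.900% of that with H3K36me3 alone. On chromosome 19 these shares were 65.9%, 29.1% and 1.76%, and elsewhere 25.7%, 11.9% and 0.864%. H3K4me3, the promoter mark, covered 7.12% of the doubly marked length, beside 0.801% with H3K9me3 alone and 12.5% with H3K36me3 alone. MINA intervals covered 10.3%, 1.69% and 14.2%. On chromosome 19 MINA covered 5.84% of the doubly marked length and 60.8% of the length with H3K36me3 alone. Elsewhere it covered 12.5% and 12.2%, beside 1.58% with H3K9me3 alone. H4K20me3 was thus higher on the doubly marked length than with either mark alone, and H3K4me3 lay between the values for the single marks. MINA on the doubly marked length was far below its value with H3K36me3 alone on chromosome 19 and close to it on the other chromosomes.

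Most of the doubly marked length was found again in the KO lists. Of the 7.41 Mb, 66.4% had both marks in KO as well, 19.1% H3K36me3 alone, 7.96% H3K9me3 alone and 6.54% neither. On chromosome 19 both marks were found again on 84.7% and elsewhere on 57.3%. H3K36me3 in KO covered 85.5% of the doubly marked length and 86.9% of the length with H3K36me3 alone. H3K9me3 in KO covered 74.3% of the doubly marked length and 60.6% of the length with H3K9me3 alone. Without chromosome 19 these shares were 81.6% and 86.6% for H3K36me3, and 66.3% and 59.3% for H3K9me3. On chromosome 19 they were 93.4% and 93.5% for H3K36me3, and 90.6% and 81.3% for H3K9me3. Recovery of H3K36me3 was thus much the same with and without H3K9me3 on chromosome 19, and lower with it elsewhere. Recovery of H3K9me3 was higher where H3K36me3 lay as well, both on chromosome 19 and elsewhere.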

How the data were processed

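ChIP-seq interval lists of H3K36me3 and H3K9me3 in WT MDA-MB-231 cells were compared, with the KO lists and 3 further WT lists beside them. Reads were aligned with BWA and enriched intervals found with SICER 1.1 on hg19, per the submitters' processing notes. Settings for window size, gap and false discovery rate, scaling to depth and whether the input entered are not given in the sources used. The deposited values are chromosome, start and end of each interval, with no other measurement. Read depth is unknown.

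Intervals were placed on windows of 200 bp and compared in Python 3.11.15 (scipy 1.17.1, numpy 2.4.6), and the counts of meeting intervals were checked with bedtools 2.31.1. The span of a chromosome ran from its first base to its last interval of any ChIP list, and included stretches without intervals. Expected lengths and shares are exact means over all circular shifts within each chromosome, and ranges come from 1000 seeded shifts (100 for gaps). Counting was tested on simulated lists.

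Members, lists and rules were chosen with earlier results of these data known. Named were the 5 longest stretches under both marks, the 3 widest intervals of each mark inside the other, the 3 widest of each mark, the 3 highest and 3 lowest chromosomes, 19 and X, and the 5 bins with the most of the scarcer mark. Alternatives left out chromosome 19 or X, merged or filtered intervals, removed empty stretches, used shifts of 1 to 5 Mb, other bins, or the KO lists. Intervals were not assigned to genes, since no hg19 annotation was used.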

Additional observations from a re-analysis of the deposited data

How the results depend on the processing

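The common length stayed below its expectation under every alternative run, at 0.162 to 0.245 times. Its ratio of 0.232 was 0.180 without chromosome 19, 0.215 with intervals within 5 kb merged, 0.235 with intervals of at least 2 kb, 0.215 with empty stretches of 500 kb removed and 0.218 with shifts of 1 to 5 Mb. The ratio for H3K36me3 intervals that met H3K9me3, 0.316, was 0.275 without chromosome 19, 0.360 after merging, 0.291 without empty stretches and 0.376 in the KO lists. The ratio for H3K9me3 intervals, 0.212, was 0.187, 0.263, 0.195 and 0.231 under the same settings. Alternatives chosen after seeing the data gave, without chromosome 19, 0.165, 0.270 and 0.183 for these 3 ratios with shifts of 1 to 5 Mb, and 0.166, 0.253 and 0.172 without empty stretches. Without chromosome 19 the KO lists gave 0.162 for length and 0.195 for H3K9me3 intervals. H3K9me3 intervals of at least 5 kb gave 0.245 and 0.240. The ratio of gaps, 1.70, was 1.62 with intervals of at least 2 kb, 1.69 without chromosome 19 and 1.29 after merging. The density correlation of -0.06 changed its sign with bins of 2 Mb (0.0404) and 5 Mb (0.22), over bins with both marks (0.0334) and over all bins (0.0652). It was -0.12 with bins of 0.5 Mb, -0.12 on autosomes, -0.0821 without chromosome 19, -0.25 for numbers of intervals and -0.17 in KO. The cause of these changes was not tested. Unknown depth limits all shares, since a list from a deeper library holds more intervals. No paired analysis was possible because each antibody had 1 library per genotype.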

Other observations

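Ends of chromosomes carried more doubly marked length than their size. This was looked at after the longest stretches had been seen. Without chromosome 19, the 2 Mb next to the first and last interval of each chromosome made up 2.96% of the span but 25.3% of the length under both H3K36me3 and H3K9me3. They held 5.32% of the length under H3K36me3 alone and 7.88% of that under H3K9me3 alone. In these 44 end blocks H3K36me3 covered 20.01% and H3K9me3 22.3%. The marks were together on 1.25 Mb beside 3.35 Mb expected within the blocks, a ratio of 0.373, and 28 of the 44 blocks held common length. Between the ends the ratio was 0.146. In KO the ratios were 0.4996 in the end blocks, of which 33 of 44 held common length, and 0.123 between them. The ratio was thus higher at chromosome ends than between them in both pairs of libraries, though still below 1. The expectation at the ends was set within blocks of 2 Mb, and that between them over longer stretches. Smaller blocks raise such a ratio. Without chromosome 19 it was 0.189 within bins of 5 Mb and 0.260 within bins of 1 Mb in WT. How much of the contrast comes from block size was not tested. The first interval of an acrocentric chromosome lies beside its centromere, so some of these blocks are not telomeric.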
